A study of Rattus norvegicus with 6 samples.

Results

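Ependymal cells, the ciliated cells that line the brain ventricles, were examined among single nuclei of rat brain after ischemic stroke. The nuclei were selected on marker genes: of all nuclei with at least 500 UMIs (molecules counted once each), 250 to 5000 genes and at most 5% mitochondrial UMIs, those were kept that held at least 5 UMIs, making up at least 0.5% of their total, of Tmem212, Ccdc162, Cfap299, Dnah11 and Dnah9, and at most 3 UMIs of the neuron genes Snap25, Syt1 and Rbfox3. The rule lists 6 marker genes, and Foxj1 was not used because no row of the count tables used here carries that symbol. It found 334 ependymal nuclei of 73649. All rats were wild-type (WT) male Wistar rats, 12 weeks old, killed 48 h after the operation. In the middle cerebral artery occlusion (MCAO) groups a filament closed the right middle cerebral artery for good. Sham rats had the same operation without the filament. Each of the 6 libraries pooled the nuclei of several rats: Sham L and Sham R were the left and right hemispheres of 4 rats, the moderate pair, mMCAO contra and mMCAO ipsi, came from 3 rats (opposite to the lesion and on its side), and the severe pair, sMCAO contra and sMCAO ipsi, from 4 rats. Comparisons were made between Sham, MCAO contra and MCAO ipsi, with 2 libraries each. The libraries of a group were not separate animals of the same condition, since the Sham libraries came from the same rats and the libraries of an MCAO group differ in severity, so a p-value measures the spread between such libraries and not between rats.

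Ependymal cells carry tufts of motile cilia whose beat moves the cerebrospinal fluid, and they control the exchange of water, ions and solutes between this fluid and the brain. A motile cilium is built around an axoneme, in which doublet microtubules with dynein motor arms surround a central pair, and radial spokes and the nexin-dynein regulatory complex coordinate the motors. Factors of the RFX and forkhead (FOXJ1) families are known to switch on the genes for these parts.

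The nuclei matched their label by genes that the rule did not use. Of 16 further ependymal markers found in the tables, 13 had at least 20 UMIs in the ependymal nuclei, and all 13 had a higher level there than in the other nuclei, with levels given as CPM, the UMIs of a gene scaled to a common total. Summed over the list, the marker level was 19080 CPM in Sham L and 14380 in Sham R, 17050 (mMCAO) and 13760 (sMCAO) in MCAO contra, and 17310 (mMCAO) and 17100 (sMCAO) in MCAO ipsi, against 99.8 CPM in all other nuclei and 494 in nuclei with astrocyte markers. Of 12 choroid plexus markers, Ttr, Kl and Kcnj13 were at 0 UMIs and 9 were detected, of which Folr1 (32 UMIs, 1058 times) and Clic6 (29 UMIs, 453 times) stood far above other nuclei and Enpp2 (27 UMIs) was at 0.715 times. As a sum the list was at 0.830 times other nuclei. Of 10 tanycyte markers found, 7 were detected and Rax, Adm and Gpr50 were at 0. A threshold on the markers of another cell type was passed by 10 ependymal nuclei for oligodendrocytes, 4 for fibroblasts, 1 for vascular cells and 0 for oligodendrocyte precursor cells and for microglia and macrophages, and astrocyte markers are described with the ciliary genes. Because the rule chose the nuclei on genes of the same cells, levels against other nuclei are descriptions and were not tested.

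Leaving out the markers of the rule, and among genes with at least 30 UMIs found in at least 4 libraries, the 25 genes with the highest ratio of pooled CPM to other nuclei, after 5 CPM had been added, were led by Rp1, which codes for a microtubule-associated protein of the axoneme known from photoreceptors. Rp1 (ENSRNOG00000008807) was at 3322 CPM in Sham L and 2695 in Sham R, 3370 (mMCAO) and 2631 (sMCAO) in MCAO contra, and 3696 (mMCAO) and 3471 (sMCAO) in MCAO ipsi, and at 1.97 CPM in other nuclei, a ratio of 1712 (95% Poisson interval 1542 to 1902, for counting error only). Sham and MCAO contra overlapped, and both MCAO ipsi libraries were slightly above them. The cadherin-related gene Cdhr4 had a ratio of 2888 and Wdr49 a ratio of 810, without 5 CPM added. Of the 25 genes, 11 belonged to 4 lists of genes for parts of the axoneme and for assembling its dynein arms, called axoneme lists here. These were the dynein heavy chains Dnah3, Dnah6, Dnah7 and Dnah12, the central pair genes Hydin, Spag17, Spef2 and Ak7, and Cfap43, Cfap44 and Efhb of the doublet microtubules. The other 14 included Bbox1, an enzyme of carnitine synthesis, and Crocc2, a relative of the ciliary rootlet protein, with ratios of 1516 and 1207.

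Promoters are shown for 5 of these genes because they hold, just before the start of transcription, the letters that RFX or forkhead factors are known to bind. Windows from 250 bases before to 50 bases after the start were available from RefSeq (rat build GRCr8) for 17 of the 25 genes. The letters GTTGCC, the core of the X-box bound by RFX factors, searched on both strands, was in the first-listed window of 5 of the 17 genes (29.4%), against 12.2% of 27457 genes. The forkhead core GTAAACA was in that of 2 genes (11.8%), against 3.76%. These motifs cannot overlap each other, and a match is a description of letters, not of a bound site. Each line gives the 120 bases before a start, 5' to 3' on the strand of the gene, with the motif in capitals (GGCAAC is GTTGCC on the opposite strand).
Wdr49, chr2:162563118-162563237, minus strand: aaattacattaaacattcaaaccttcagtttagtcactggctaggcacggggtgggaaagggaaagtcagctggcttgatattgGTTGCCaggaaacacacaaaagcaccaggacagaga
Cfap44, chr11:69789906-69790025, minus strand: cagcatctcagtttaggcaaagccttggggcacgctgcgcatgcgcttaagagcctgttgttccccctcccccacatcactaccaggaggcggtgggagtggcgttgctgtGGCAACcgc
Hydin, chr19:55146346-55146465, plus strand: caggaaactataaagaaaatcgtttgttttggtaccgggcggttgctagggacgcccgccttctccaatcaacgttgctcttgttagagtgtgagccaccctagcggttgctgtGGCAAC
Cfap43, chr1:256653703-256653822, minus strand, from another listed start of the gene: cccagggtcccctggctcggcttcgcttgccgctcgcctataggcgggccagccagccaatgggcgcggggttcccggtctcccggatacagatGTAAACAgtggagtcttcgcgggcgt
Efhb, chr9:6678268-6678387, minus strand: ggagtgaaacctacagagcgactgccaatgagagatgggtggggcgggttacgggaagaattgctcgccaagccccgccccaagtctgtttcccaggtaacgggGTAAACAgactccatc

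Ependymal nuclei made up a larger share of the MCAO libraries than of the Sham libraries. They numbered 20 of 13125 nuclei (0.152%, exact 95% binomial interval 0.0931 to 0.235) in Sham L and 7 of 13626 (0.0514%, 0.0207 to 0.106) in Sham R. MCAO contra held 84 of 14491 (0.580%, 0.463 to 0.717) in mMCAO and 47 of 10794 (0.435%, 0.320 to 0.579) in sMCAO. MCAO ipsi held 69 of 12948 (0.533%, 0.415 to 0.674) in mMCAO and 107 of 8665 (1.23%, 1.01 to 1.49) in sMCAO. Both Sham libraries were below all MCAO libraries, whereas the ranges of MCAO contra and MCAO ipsi overlapped. Pooled by condition, the share was 0.101% (0.0665 to 0.147) in Sham, 0.518% (0.433 to 0.614) in MCAO contra and 0.814% (0.699 to 0.943) in MCAO ipsi. With 2 libraries a group, an exact two-sided permutation test cannot give a p below 0.33, and the intervals cover counting error only.

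The share in MCAO ipsi depended on the nuclei counted beside the ependymal ones. Counts of nuclei over the limit on neuron genes were 10820 in Sham L and 11851 in Sham R, 10956 (mMCAO) and 8307 (sMCAO) in MCAO contra, and 9030 (mMCAO) and 3272 (sMCAO) in MCAO ipsi. Among the nuclei within that limit, the ependymal share was 0.868% in Sham L and 0.394% in Sham R, 2.38% (mMCAO) and 1.89% (sMCAO) in MCAO contra, and 1.76% (mMCAO) and 1.98% (sMCAO) in MCAO ipsi. On this base the 4 MCAO libraries lay close together, above both Sham libraries, and sMCAO ipsi no longer stood apart. With every nucleus thinned to 500 UMIs and a limit of 3 marker UMIs, the share of all nuclei was 0.206% in Sham L and 0.0661% in Sham R, 0.621% (mMCAO) and 0.482% (sMCAO) in MCAO contra, and 0.579% (mMCAO) and 1.29% (sMCAO) in MCAO ipsi, in the same order as before thinning. Thinning cannot bring back nuclei below 500 UMIs. Ependymal nuclei of Sham lay near that limit, with the smallest at 511 UMIs in Sham L and 537 in Sham R. The part of such a loss in the low Sham share was not tested.

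**Figure D1:**
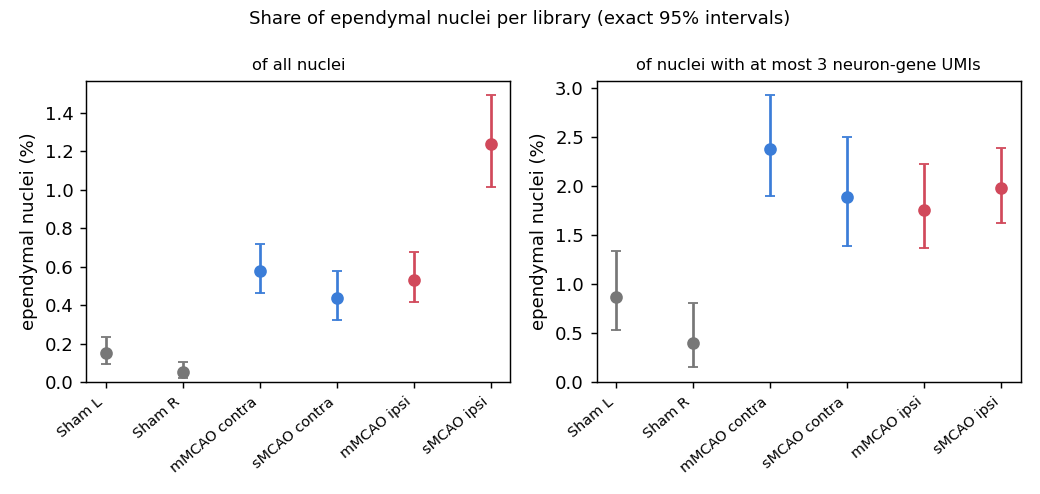
Share of ependymal nuclei in each of the 6 libraries, in percent of all nuclei and of nuclei with at most 3 UMIs of the neuron genes (bars are exact 95% binomial intervals, for counting error only). Sham L and Sham R sit lowest on both bases, and sMCAO ipsi, at 1.23% of all nuclei, is within the range of the other MCAO libraries on the other base.

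Ependymal nuclei were small in RNA, most of all in Sham. Their median UMI count was 706 in Sham L and 574 in Sham R, 947 (mMCAO) and 855 (sMCAO) in MCAO contra, and 858 (mMCAO) and 1725 (sMCAO) in MCAO ipsi. Other nuclei had a median of 3034, 2272, 3381, 2874, 3197 and 2067 UMIs in the same order, so only in sMCAO ipsi did the depth of ependymal nuclei come near that of the rest. Summed over ependymal nuclei, the depth of a library was 14148 UMIs in Sham L and 4452 in Sham R, 85448 (mMCAO) and 49403 (sMCAO) in MCAO contra, and 64656 (mMCAO) and 211180 (sMCAO) in MCAO ipsi, so values in Sham, Sham R above all, rest on the fewest counts. A gene with 0 UMIs, such as Gfap in Sham, may still be at up to 261 CPM in Sham L and 829 CPM in Sham R by the exact 95% Poisson interval. The share of mitochondrial UMIs was 0.799% in Sham L and 0.359% in Sham R, 1.20% (mMCAO) and 0.933% (sMCAO) in MCAO contra, and 1.03% (mMCAO) and 1.07% (sMCAO) in MCAO ipsi. It was above that of other nuclei, at most 0.207%, in every library. Barcodes shared between 2 libraries numbered 118 to 281 over the 15 pairs, and none belonged to an ependymal nucleus in both. Near the rule's thresholds, 27 ependymal nuclei held 5 or 6 marker UMIs and 61 had a marker share of 0.5 to 1%. Of nuclei outside that were short of a single limit, 7 held 3 or 4 marker UMIs. Another 24 had a share between 0.25 and 0.5%, 21 of them in sMCAO ipsi. Nuclei short of both limits are not in these counts, and a looser rule of 3 UMIs and 0.3% found 381 nuclei. In Sham R, 4 of the 7 ependymal nuclei held 5 or 6 marker UMIs and 4 had a marker share of 0.5 to 1%.

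The gene response was tested with edgeR's quasi-likelihood test on UMIs summed per library (1715 genes, Benjamini-Hochberg adjustment, calls at an adjusted p under 0.05 and a log2 fold change of at least 0.6 in size). In MCAO ipsi against Sham, 2 genes rose (0.117% of those tested) and 20 fell (1.17%). In MCAO ipsi against MCAO contra, 1 rose (0.0583%) and 4 fell (0.233%). None passed in MCAO contra against Sham (0% in each direction), where an unadjusted p under 0.05 was reached by 94 genes in the upward and 46 in the downward direction in edgeR, and DESeq2 also called 0. The median log2 fold change over all genes tested was 0.22 in MCAO ipsi against Sham, -0.02 in MCAO ipsi against MCAO contra and 0.21 in MCAO contra against Sham. Without Sham L, MCAO ipsi against Sham had 13 genes higher and 0 lower, and without sMCAO ipsi or without mMCAO contra it had none. In the fit without Sham L, Sham is Sham R alone, which is assumed to vary like the other groups.

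Among nuclei that the rule required to hold UMIs of axonemal genes, no further gene of the ciliary axoneme passed the test after stroke. Nuclei that lost these transcripts could not enter, so a loss of the ciliary program cannot be seen in this comparison. Of 106 genes found from the 4 axoneme lists, 92 had at least 20 UMIs, all of them at a higher CPM than in other nuclei, and 66 were deep enough to be tested. None of the 66 was called in any of the 3 comparisons, in which at most 1.17% of all genes tested were called in a direction, so a count of 0 is near the background. Their median log2 fold change was 0.30 in MCAO ipsi against Sham, 0.10 in MCAO ipsi against MCAO contra and 0.25 in MCAO contra against Sham, each close to that of all genes tested. At an unadjusted p under 0.05, edgeR had 1, 0 and 2 of them. The share of at most 1.17% is also the background for the counts of 0 given for the other lists.

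Within the axoneme, the dynein motor genes (17 found) were summed at 17390 CPM in Sham L and 11680 in Sham R, 16090 (mMCAO) and 12710 (sMCAO) in MCAO contra, and 16210 (mMCAO) and 15250 (sMCAO) in MCAO ipsi, 85.6 times their level in other nuclei. Dnah12, an inner arm heavy chain with the most UMIs of the list, was at 6432, 2920, 4552, 3644, 4872 and 4929 CPM in the same order. The Sham libraries gave both its highest and its lowest value and spanned the MCAO libraries, of which those of MCAO ipsi were above those of MCAO contra. The 20 factors that assemble and deliver dynein arms were lower against other nuclei, at 11.9 times, and ran from 4492 CPM in Sham R to 5867 in sMCAO ipsi.

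The central pair and radial spoke genes (25 found) were at 14560 CPM in Sham L and 13930 in Sham R, 15580 (mMCAO) and 12550 (sMCAO) in MCAO contra, and 15670 (mMCAO) and 14700 (sMCAO) in MCAO ipsi, with Hydin holding the most UMIs. The 44 genes of the doublet microtubules and of the nexin-dynein regulatory complex were at 14140, 12350, 16270, 13760, 15850 and 15740 CPM in that order. In both lists MCAO ipsi was above Sham by small margins and MCAO contra overlapped the other groups, and the sums stood 32.4 and 42.4 times above other nuclei. Per nucleus, the 4 lists together took a median of 4.97% of UMIs in Sham L, 5.11% in Sham R, 5.60% (mMCAO) and 5.24% (sMCAO) in MCAO contra, and 5.57% (mMCAO) and 5.58% (sMCAO) in MCAO ipsi, against 0.146% of the UMIs of all other nuclei. They took less than 2% in 20 of the 334 nuclei, and 13 of these were in sMCAO ipsi.

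**Figure D2:**
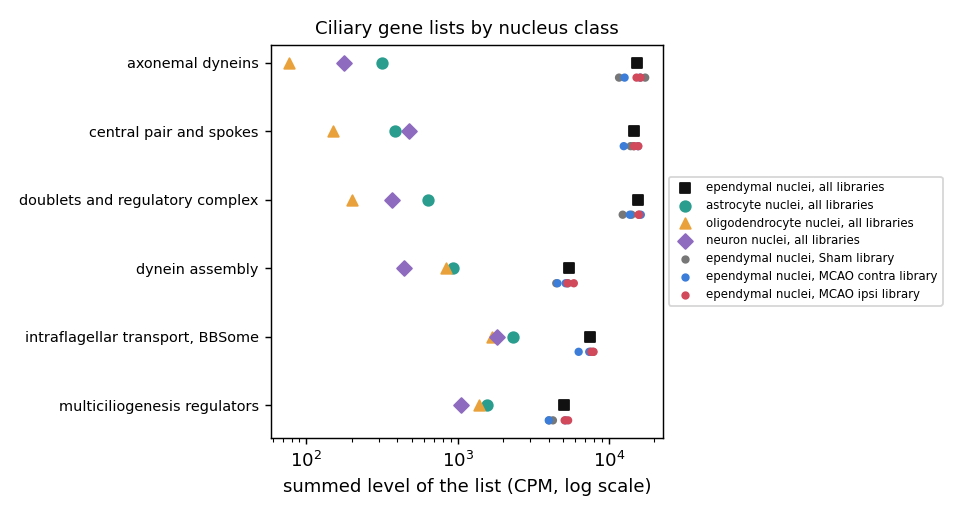
Summed level (CPM, log axis) of the 4 axoneme lists, of intraflagellar transport and of regulators of ciliogenesis, with all ependymal, astrocyte-marker, oligodendrocyte-marker and neuron nuclei as large symbols and the ependymal nuclei of each library as small points below. Ependymal nuclei are to the right of the other classes in all 6 lists, and their libraries lie close together.

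In sMCAO ipsi, 12 of the 13 nuclei under 2% also held astrocyte markers, and in the other libraries 1 of 7 did. A threshold of 5 UMIs and 0.5% of UMIs for 10 astrocyte markers was passed by 17 ependymal nuclei of sMCAO ipsi, 1 of mMCAO contra and 1 of sMCAO contra. In sMCAO ipsi the axoneme lists took a median of 1.41% of UMIs in these 17 and 5.75% in the other 90. The level in the 17 nuclei was between that of ependymal nuclei and that of nuclei with astrocyte markers alone, which gave 0.254% of their UMIs to these lists in sMCAO ipsi. Of 334 ependymal nuclei, 7 were among the 5% of their library with the highest doublet score, 4 of them in sMCAO ipsi. The main values that rest on sMCAO ipsi are given with and without the nuclei with astrocyte markers.

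**Figure D3:**
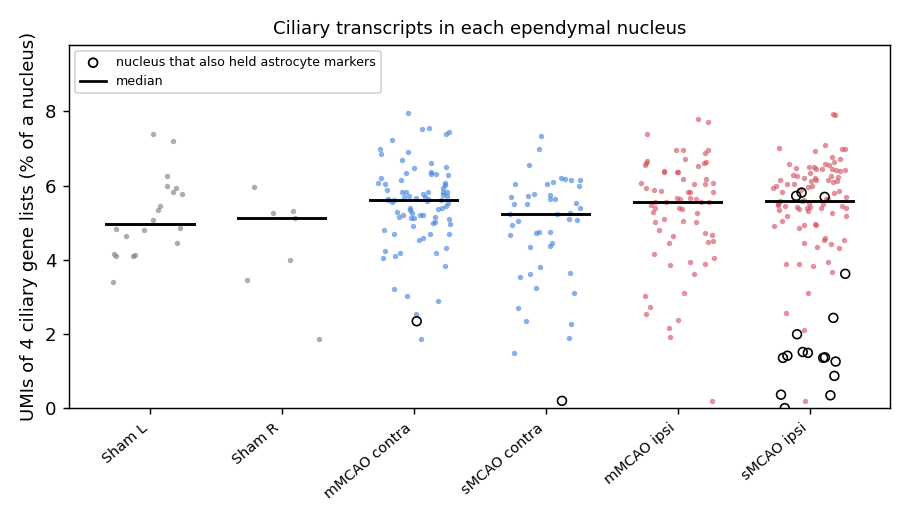
Percent of UMIs from the 4 axoneme lists in every ependymal nucleus, by library, with nuclei that also hold astrocyte markers drawn apart. Most nuclei lie near 5%, and 12 of the 20 nuclei under 2% are ones with astrocyte markers in sMCAO ipsi.

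Regulators of motile ciliogenesis were found at lower counts. Of 25 such genes found, 16 had at least 20 UMIs, 14 of them above other nuclei, 11 were tested and none was called in any comparison. Rfx3, an RFX factor, was at 990 CPM in Sham L and 899 in Sham R, 1006 (mMCAO) and 992 (sMCAO) in MCAO contra, and 1315 (mMCAO) and 1681 (sMCAO) in MCAO ipsi. Its MCAO ipsi libraries were above the others, but it was not called. Rfx2 stood 123 times, Tp73, which acts upstream in the multiciliated program, 460 times, and Ccdc78 and Deup1, which serve the amplification of basal bodies, 287 and 182 times above other nuclei. Myb, which is known to act early in this program, had 172 UMIs and a ratio of 357. It was at 70.7 CPM in Sham L and 0 in Sham R, 515 (mMCAO) and 344 (sMCAO) in MCAO contra, and 433 (mMCAO) and 388 (sMCAO) in MCAO ipsi. All MCAO libraries were above the Sham libraries, which held a single Myb UMI between them, and the change in MCAO contra against Sham (log2 3.19 ± 0.95 SE, adjusted p 0.56 by edgeR) was not called. The inducers Mcidas and Foxn4 were at 0 UMIs.

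Genes of intraflagellar transport and of the BBSome, which motile and primary cilia share, were summed at 7563 CPM in Sham L and 7862 in Sham R, 7420 (mMCAO) and 6315 (sMCAO) in MCAO contra, and 7919 (mMCAO) and 7648 (sMCAO) in MCAO ipsi, 4.13 times other nuclei. None of the 18 tested was called. The planar polarity and junction list as a whole was no higher than in other nuclei (ratio 0.948), but some of its members were: the polarity genes Celsr1 (88.3 times), Fzd6 (37.1 times) and Vangl1 (28.8 times), the motor gene Myo7a (125 times) and the junction gene Tjp3 (87.3 times). None of its 12 tested genes was called.

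Transport genes stood 1.37 times above other nuclei as a list, but were lower than in nuclei with astrocyte markers (4305 and 18120 CPM). Of 12 tested 0 were called, near the background of at most 1.17% of all genes tested in a direction. The water channel gene Aqp4 (ENSRNOG00000016043) carried the most UMIs. It was at 141 CPM in Sham L and 0 in Sham R, 456 (mMCAO) and 466 (sMCAO) in MCAO contra, and 480 (mMCAO) and 966 (sMCAO, 906 without the nuclei with astrocyte markers) in MCAO ipsi. The MCAO ipsi libraries were above all others, the Sham libraries held 2 UMIs in all, and the change in MCAO ipsi against Sham (log2 2.99 ± 0.80 SE, adjusted p 0.0827 by edgeR) did not pass. Aqp4 was 61.0 times above all other nuclei, most of which were neurons, but at a like level in nuclei with astrocyte markers (697 CPM in ependymal, 795 in these). The chloride channel gene Clic6 was at 67.6 and 2.06 CPM in the same nuclei.

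Genes of radial glia and of the subventricular niche were summed at 2686 CPM in Sham L and 2471 in Sham R, 3698 (mMCAO) and 3421 (sMCAO) in MCAO contra, and 3944 (mMCAO) and 6094 (sMCAO) in MCAO ipsi (5164 without the nuclei with astrocyte markers). By value, the order of the groups was Sham, MCAO contra, MCAO ipsi with no overlap. The exact Poisson intervals did overlap, at 3302 to 4129 CPM in mMCAO contra and 3475 to 4459 in mMCAO ipsi. In Sham R, on 11 UMIs, the interval was 1233 to 4421 CPM. Only the interval of sMCAO ipsi (5766 to 6437 CPM) lay above all others. Gfap and Vim, which are also among the reactive glia genes given below, held 159 and 166 of the list's 1287 UMIs in sMCAO ipsi. Of 5 tested genes 0 were called in any comparison, near the background of at most 1.17% of all genes tested in a direction. The transcription factor gene Nfia had the most UMIs of the list (880). Sox9, Cd24 and Prom1, which are known from ependymal and neural stem cells, had 26 to 32 UMIs. Against nuclei with astrocyte markers, Cd24 was at 74.5 and 24.3 CPM and Prom1 at 72.2 and 6.60 CPM, while Sox9 was at 60.6 CPM in both and the list as a whole was lower in ependymal nuclei (4836 and 9242 CPM). The lists for Notch, Shh, Wnt, FGF and EGF signalling (6 tested), heat shock and the unfolded protein response (8), glycolysis and low oxygen (3) and the cell cycle (3) had no call in any comparison. With so few genes tested, these counts are near the same background of at most 1.17% and say little about the lists.

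Reactive glia genes, which are known to rise in glia after injury, were summed at 990 CPM in Sham L and 674 in Sham R, 1077 (mMCAO) and 1275 (sMCAO) in MCAO contra, and 1361 (mMCAO) and 3802 (sMCAO) in MCAO ipsi (2934 without the nuclei with astrocyte markers). The groups did not overlap, but this rested on Cp, which held 19 of 88 UMIs in mMCAO ipsi and 5 of 63 in sMCAO contra. Without Cp, mMCAO ipsi would be below sMCAO contra. Only 4 of the 50 genes were deep enough to be tested, and 1 of them, Cp, was called, in MCAO ipsi against MCAO contra. There it was also the only gene of all tested that rose (0.0583%). The list for iron handling, lipid transport and oxidant defence, which also holds Cp, was at 424 CPM in Sham L and 1348 in Sham R, 1568 (mMCAO) and 1700 (sMCAO) in MCAO contra, and 1763 (mMCAO) and 3414 (sMCAO, 3318 without the nuclei with astrocyte markers) in MCAO ipsi, again without overlap. The exact Poisson intervals of this list overlapped between the groups, at 1356 to 2105 CPM in sMCAO contra and 1454 to 2118 in mMCAO ipsi. Cp was its only call among 5 tested genes.

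**Figure D4:**
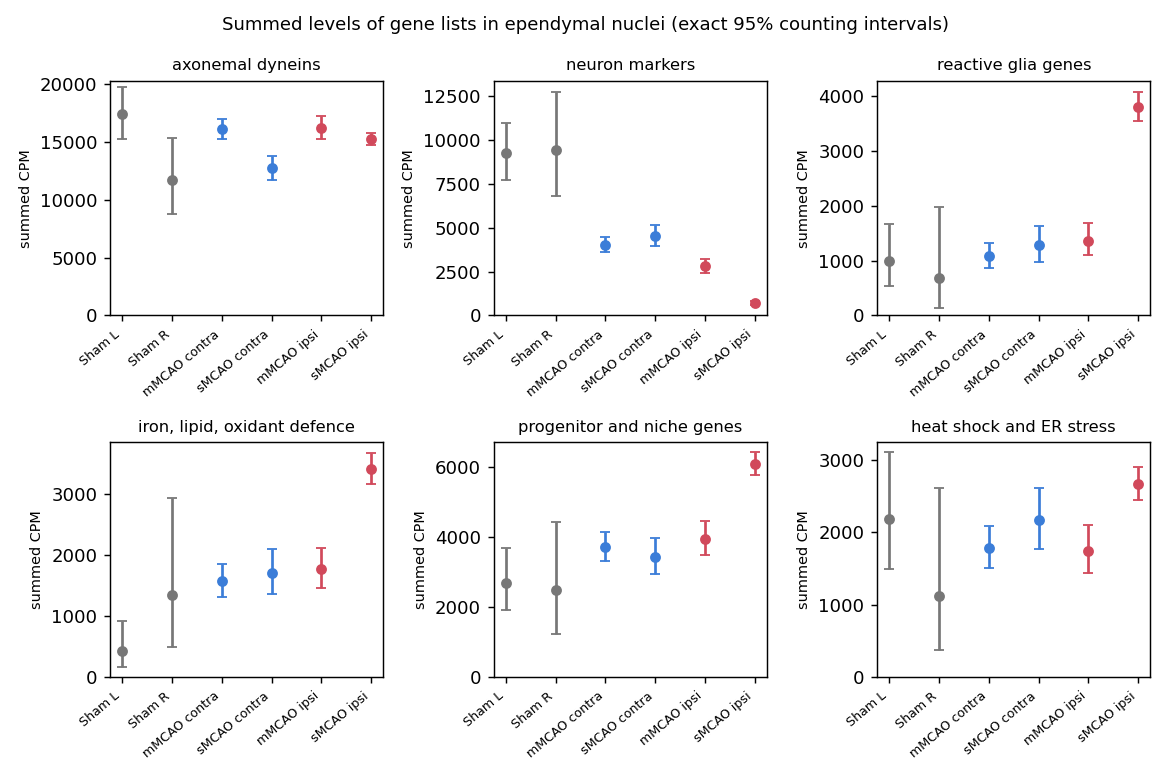
Summed CPM of 6 gene lists in the ependymal nuclei of each library (bars are exact 95% Poisson intervals, for counting error only). The reactive, niche and iron lists are highest in sMCAO ipsi, and neuron markers, here with the 3 genes capped by the rule, are lowest there, at 715 CPM.

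The genes that rose in MCAO ipsi against Sham were Synpo2, which codes for an actin-binding protein, and Mdm2, which codes for the ubiquitin ligase of p53. Synpo2 (ENSRNOG00000014867) had no UMI in Sham L and Sham R, and was at 316 CPM (mMCAO) and 344 (sMCAO) in MCAO contra, and 387 (mMCAO) and 601 (sMCAO) in MCAO ipsi. Against a floor of 3 counts over the Sham group (161 CPM), it was at least 3.42-fold higher in MCAO ipsi and at least 2.02-fold higher in MCAO contra (adjusted p 0.0317 by edgeR in MCAO ipsi, not called in MCAO contra). Mdm2 (ENSRNOG00000006304) was at 283 CPM in Sham L and 0 in Sham R, 808 (mMCAO) and 628 (sMCAO) in MCAO contra, and 959 (mMCAO) and 1193 (sMCAO) in MCAO ipsi. Its MCAO ipsi libraries were above MCAO contra and these above Sham, and the change against Sham was log2 2.54 ± 0.61 SE (adjusted p 0.0455). DESeq2 called neither gene, and each was called in 7 of 17 alternative fits.

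The genes next in order of p did not pass. They included Agbl2, which codes for an enzyme that trims tubulin tails and had 0 UMIs in Sham, Shroom3, which shapes the cell apex, Cep128 of the centriole and the mitochondrial gene Mt-cyb. Shroom3 was at 141 CPM in Sham L and 225 in Sham R, 620 (mMCAO) and 547 (sMCAO) in MCAO contra, and 603 (mMCAO) and 658 (sMCAO) in MCAO ipsi. Both hemispheres of the MCAO rats were thus above Sham (adjusted p 0.105 by edgeR in MCAO ipsi). Mt-cyb was at 919, 674, 2177, 1437, 2026 and 2084 CPM in the same order (adjusted p 0.0936).

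The 20 genes that fell in MCAO ipsi against Sham were genes abundant in neurons. All 20 had a higher CPM in neuron nuclei than in ependymal nuclei, as did 498 of the 1715 genes tested, and they included the glutamate receptor genes Gria4, Grid1 and Grm7, the synaptic scaffold gene Dlg2 and the adhesion genes Cntn5, Opcml and Cadm2. Car10, the largest change, was at 495 CPM in Sham L and 674 in Sham R, 81.9 (mMCAO) and 81.0 (sMCAO) in MCAO contra, and 30.9 (mMCAO) and 9.47 (sMCAO) in MCAO ipsi, with no overlap between the groups (log2 -4.79 ± 0.85 SE, adjusted p 0.0114 by edgeR). Phactr1 was at 1838, 674, 363, 789, 170 and 161 CPM in that order. Its MCAO contra and Sham libraries overlapped, and in MCAO ipsi it was below both (log2 -2.97 ± 0.52 SE against Sham, adjusted p 0.0114). Leaving out a library in turn gave log2 -3.31 to -1.01 for Phactr1 and -5.15 to -3.69 for Car10.

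These falls were not particular to ependymal nuclei. In nuclei with astrocyte markers, both MCAO ipsi libraries were below both Sham libraries in 19 of the 20 genes, against 26.1% of all genes tested, with Dlg2 at 2036 CPM in Sham L and 2157 in Sham R and at 545 (mMCAO) and 216 (sMCAO) in MCAO ipsi.

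Neuron markers as a sum had the same direction. Of 14 listed neuron markers 11 were found, 3 of which (Snap25, Syt1 and Rbfox3) the rule had capped. Over the other 8, the summed level in ependymal nuclei was 7634 CPM in Sham L and 8086 in Sham R, 3593 (mMCAO) and 4028 (sMCAO) in MCAO contra, and 2196 (mMCAO) and 573 (sMCAO) in MCAO ipsi, against 29000 in neuron nuclei. The groups did not overlap. The cap of 3 UMIs a nucleus allows a larger share of neuron RNA in shallow nuclei, and ependymal nuclei were shallowest in Sham and deepest in sMCAO ipsi, so its part cannot be told apart from the group. Rbfox1 had the most UMIs of the list and Slc17a6 was at 0. Of the 3 tested besides Snap25 and Syt1, Rbfox1 and Dlg2 fell in MCAO ipsi against Sham (1.17% of all genes tested fell) and Rbfox1 in MCAO ipsi against MCAO contra (0.233%). Both are among the called genes described here and are not independent of them. Without the genes that were higher in neuron nuclei, no gene was called in MCAO ipsi against Sham, although 70 upward and 34 downward changes had an unadjusted p under 0.05 in edgeR. RNA outside nuclei and neuron doublets can carry such genes into nuclei of other cells, and their part in the result was not tested.

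In MCAO ipsi against MCAO contra, the hemispheres of the same rats, Cp rose. Cp (ENSRNOG00000011913) codes for ceruloplasmin, a copper-binding ferroxidase that serves iron export. It was at 58.5 CPM (mMCAO) and 101 (sMCAO) in MCAO contra, and 294 (mMCAO) and 791 (sMCAO) in MCAO ipsi, on 5, 5, 19 and 167 UMIs, and at 70.7 CPM in Sham L and 0 in Sham R. Both libraries on the side of the lesion were above all others, as they were in nuclei with astrocyte markers. In those, Cp was at 34.8 CPM in Sham L and in Sham R, 106 (mMCAO) and 107 (sMCAO) in MCAO contra, and 219 (mMCAO) and 451 (sMCAO) in MCAO ipsi. The rise was thus not particular to ependymal nuclei. The change in ependymal nuclei was log2 2.93 ± 0.53 SE (adjusted p 0.0225 by edgeR). With the rats of a severity as a replicate block, which raised the calls to 1 higher and 10 lower, it was 2.65 (adjusted p 0.00444), and without the nuclei with astrocyte markers 2.95 (adjusted p 0.0213). The call was lost in 7 of 18 alternative fits, among them those without sMCAO ipsi (log2 1.91, adjusted p 1), without doublets (log2 2.87, adjusted p 0.132) and with DESeq2 (log2 2.84, adjusted p 0.267), the last 2 with a change about as large.

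Other genes that were higher on the side of the lesion did not pass. Hrct1 (ENSRNOG00000039336) was at 0 UMIs in both Sham libraries, and at 46.8 CPM (mMCAO) and 40.5 (sMCAO) in MCAO contra, and 186 (mMCAO) and 350 (sMCAO) in MCAO ipsi. Both MCAO ipsi libraries were above all others, as for Cp (log2 2.66 ± 0.58 SE, adjusted p 0.053 by edgeR), and it was called in 7 of 16 alternative fits (log2 2.37 to 2.92, adjusted p 0.00319 to 0.889). Tpm1, a tropomyosin gene, was at 866 CPM (mMCAO) and 526 (sMCAO) in MCAO contra, and 1701 (mMCAO) and 1260 (sMCAO) in MCAO ipsi (adjusted p 0.208), and at 707 in Sham L and 1348 in Sham R, the latter above sMCAO ipsi. Vim, an intermediate filament gene, overlapped between MCAO ipsi and MCAO contra (adjusted p 0.339).

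The 4 genes that fell in MCAO ipsi against MCAO contra were Gria4, Galntl6, Rbfox1 and Anks1b, all 4 with a higher CPM in neuron nuclei. Rbfox1, a splicing factor gene of neurons, was at 2545 CPM in Sham L and 2471 in Sham R, 1159 (mMCAO) and 1640 (sMCAO) in MCAO contra, and 541 (mMCAO) and 199 (sMCAO) in MCAO ipsi. The groups did not overlap (log2 -2.07 ± 0.39 SE, adjusted p 0.0225 by edgeR). Leaving out a library in turn gave log2 -2.80 to -1.38, and the call was lost in 8 of 17 alternative fits. The neuron marker sums given above have the same order. Without the genes higher in neuron nuclei, 3 genes were higher in MCAO ipsi and none lower.

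The values of moderate and severe infarctions in MCAO ipsi are given side by side, with 1 library of each and hence no test, and the intervals cover counting error only, not the spread between libraries or rats. Cp was 2.69 times (95% Poisson interval 1.67 to 4.58), Vim 3.18 times (1.90 to 5.69), Clu, which codes for the chaperone clusterin, 5.87 times (2.62 to 16.3) and Fth1, which codes for ferritin heavy chain, 4.64 times (2.17 to 11.8) as high in sMCAO ipsi as in mMCAO ipsi. Leaving out the nuclei with astrocyte markers gave 2.47, 3.40, 5.86 and 4.87. Vim was at 281 CPM (mMCAO) and 101 (sMCAO) in MCAO contra, and 248 (mMCAO) and 786 (sMCAO) in MCAO ipsi, so between the hemispheres of the moderate infarction the ratio was 0.881 (0.437 to 1.73). Clu was at 222, 122, 92.8 and 545 CPM in that order and at 0 in Sham L and 674 in Sham R, where the value rests on 3 UMIs. The central pair gene Cfap74 went the other way, at 0.477 times (0.350 to 0.653).

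Gfap, the intermediate filament gene of astrocytes, behaved otherwise. It was at 11.7 CPM (mMCAO) and 20.2 (sMCAO) in MCAO contra, and 61.9 (mMCAO) and 753 (sMCAO) in MCAO ipsi, and at 0 in Sham. Of its 159 UMIs in sMCAO ipsi, 133 were in the 17 nuclei with astrocyte markers, without which the level was 143 CPM and the ratio of severe to moderate fell from 12.2 (4.66 to 45.2) to 2.31 (0.801 to 9.10). Gfap is itself among the markers that picked these nuclei, so that its level falls without them by construction. By contrast they held 13 of 166 Vim UMIs and 35 of 167 Cp UMIs. The astrocyte marker list as a whole (12 of 12 found, none at 0, Gpc5 with the most UMIs) was at 1131 CPM in Sham L and 5615 in Sham R, 2820 (mMCAO) and 2287 (sMCAO) in MCAO contra, and 1469 (mMCAO) and 3670 (sMCAO, 1917 without these nuclei) in MCAO ipsi, against 23140 in nuclei with astrocyte markers.

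**Figure D5:**
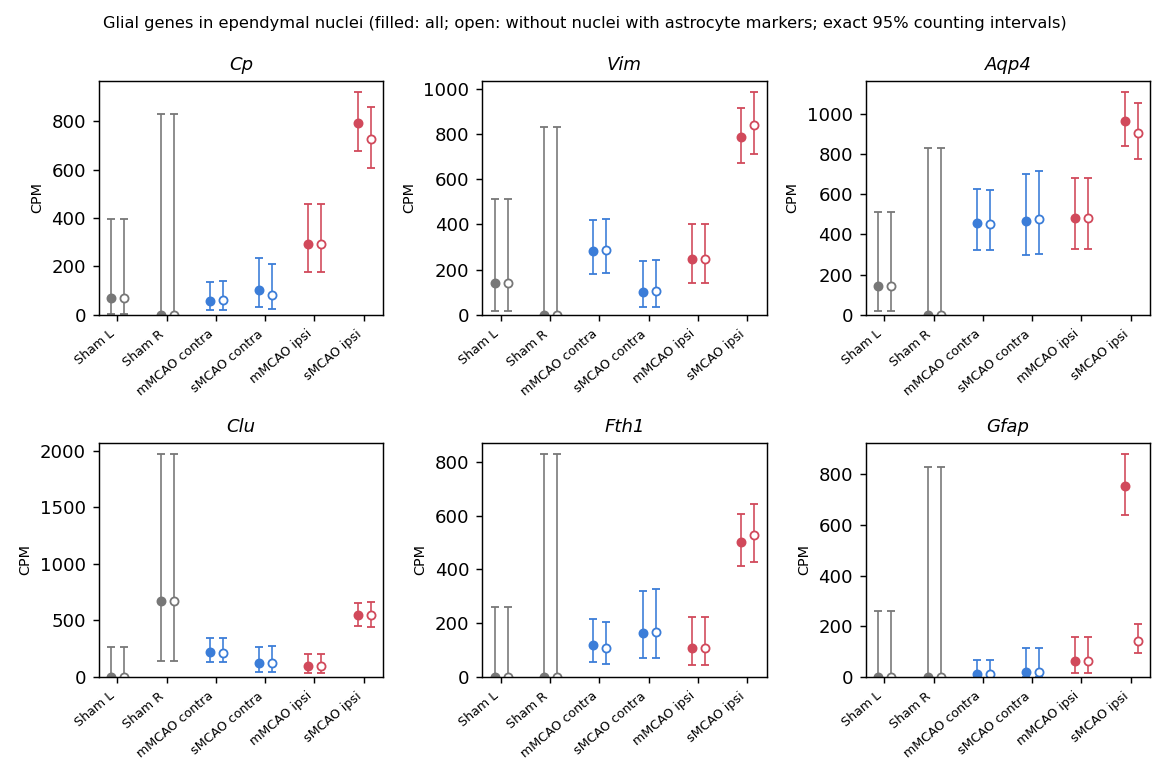
CPM of single genes in the ependymal nuclei of each library, with and without the nuclei that hold astrocyte markers (bars are 95% Poisson intervals, for counting error only). Cp and Vim stay high in sMCAO ipsi without these nuclei, while Gfap falls from 753 to 143 CPM.

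The response of ependymal nuclei to stroke was then set against that of nuclei with astrocyte markers (1458 nuclei), with the term for the difference between the responses tested by edgeR over 3184 genes. The p-values of this test relate to the changes and their SEs as in a normal distribution. The spread was in effect taken from all genes together, so a small p does not measure the spread of that gene between libraries. In MCAO ipsi against Sham, 10 genes had a higher response in ependymal nuclei (0.314%) and none a lower one (0%; 261 and 42 at an unadjusted p under 0.05), and the median difference over all genes was log2 0.57. Bend5 (ENSRNOG00000008025), a gene for a BEN domain protein, was at 2403 CPM in Sham L and 2920 in Sham R, 3230 (mMCAO) and 2712 (sMCAO) in MCAO contra, and 3232 (mMCAO) and 2846 (sMCAO) in MCAO ipsi in ependymal nuclei. In nuclei with astrocyte markers it was at 783, 626, 255, 353, 167 and 90.3 CPM in that order. It stayed level in the former while the latter were lowest in MCAO ipsi, and the difference was log2 3.50 ± 0.53 SE (adjusted p 1.77e-07). Frmd5 followed, at 990 to 1457 CPM over the libraries of ependymal nuclei and between 48.8 CPM in sMCAO ipsi and 557 in Sham R in nuclei with astrocyte markers (log2 3.28 ± 0.58 SE, adjusted p 2.93e-05). Of the 10 genes, 4 were higher in neuron nuclei than in ependymal nuclei, namely Tenm2, Ralyl, Lrrtm4 and Csmd3, close to the share among all genes tested (36.7%). Set against nuclei with astrocyte markers, however, 8 of the 10 were higher in neuron nuclei, against 30.1% of all genes tested (Bend5 was at 1052 CPM in neuron nuclei and 165 in nuclei with astrocyte markers), and the part of neuron RNA in the difference was not tested. Without the nuclei scored as doublets, 3 genes had a higher and 1 a lower response, 119 and 94 had an unadjusted p under 0.05, and the median difference was log2 0.06, so the one-sided balance did not hold in that alternative. None of the 74 tested genes of the axoneme lists was called in this comparison.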

How the data were processed

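Nuclei were isolated from frozen hemisphere slices and sequenced in 6 libraries with a droplet-based 10x Genomics kit. The authors aligned and counted the reads with Cell Ranger (7.0.0, per the submitters' processing notes) on the rat genome mRatBN7.2, and the deposited values are raw UMI counts of 30560 genes per nucleus, before their removal of free RNA and doublets. No column of another sample was present. The other parts of the study were not used here.

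The marker rule and limits were applied to all nuclei. The members and gene lists were chosen with earlier results of these data known. The text names, per comparison, up to 10 called genes per direction, those of largest fold change among genes whose groups do not overlap, filled up to 10 by smallest p where fewer than 5 were called. It also names the 10 genes of smallest p for the response difference, the 25 leading genes, and list genes with at least 20 UMIs. Genes named besides these as examples among calls or at 0 were chosen after their values were seen. UMIs were summed per library and tested with edgeR 4.0.16 (filterByExpr, TMM, quasi-likelihood F test with 3 residual degrees of freedom, limma 3.58.1) in R 4.3.3, with DESeq2 1.42.0 as an alternative. Both hemispheres of a severity came from the same rats, per the labels, so same-numbered MCAO contra and MCAO ipsi libraries are paired. The correlation of their deviations from the group means was -0.098 over 1715 genes with 2 pairs. Doublets were scored by how many simulated doublets lay among the neighbours of a nucleus. They were kept in the main analysis, and an alternative dropped the top 5% of each library by this score. Ratios carry exact Poisson and shares exact Clopper-Pearson 95% intervals. The depth was 33012945 to 52513380 UMIs a library over all deposited nuclei, including those outside the limits. The test was checked on simulated data. UMI counts grow with gene length, so levels were not compared between genes, other than to name the gene of a list with the most UMIs. Counting by strand is not given in the sources used here, so reads of overlapping genes may be mixed. Leaving out nuclei with astrocyte markers, thinning to 500 UMIs, the share among nuclei with few neuron UMIs and leaving out genes higher in neurons were alternatives chosen after seeing the data. Python 3.11.15, numpy 2.4.6, scipy 1.17.1, pandas 2.3.3 and matplotlib 3.10.9 were used.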

Additional observations from a re-analysis of the deposited data

Results flagged for a closer look

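The response to stroke (MCAO ipsi against Sham) differed between ependymal nuclei and nuclei with astrocyte markers in 10 genes, by edgeR's test of the difference between the responses. On the log2 scale, the difference was 3.50 for Bend5, 3.28 for Frmd5, 2.47 for Csmd3, 2.75 for ENSRNOG00000031222, 2.50 for Tenm2, 2.39 for Ralyl, 2.45 for RGD1560883, 9.89 for Nwd1, 2.40 for Srrm2 and 1.94 for Lrrtm4, all in the direction of a higher response in ependymal nuclei. The value of Nwd1 rests on 0 UMIs in ependymal nuclei of both Sham libraries and is no measure of size. Tenm2 and Lrrtm4 were lower in MCAO ipsi than in Sham in both kinds of nuclei, Tenm2 at 778 and 674 CPM in Sham and 480 and 213 CPM in MCAO ipsi in ependymal nuclei. Csmd3 was also lower in ependymal nuclei, at 1979 and 2246 CPM in Sham and 1655 and 1293 CPM in MCAO ipsi. RGD1560883 went from 707 and 674 CPM in Sham to 1655 and 1326 CPM in MCAO ipsi in ependymal nuclei and from 365 and 487 to 268 and 236 CPM in astrocyte-marker nuclei.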

How the results depend on the processing

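The 22 genes called in MCAO ipsi against Sham became 38 with a filter of 10 UMIs in 2 libraries, 9 without doublets, 1 with a stricter marker rule, 0 without genes higher in neurons, 0 with the libraries of those groups alone and 0 to 40 when leaving out each library in turn (0 without sMCAO ipsi or without mMCAO contra). The main split of 2 higher and 20 lower turned to 13 higher and 0 lower without Sham L (1 of the 13 shared with the 22) and to 9 higher and 6 lower with no filter on low counts. The 5 genes called in MCAO ipsi against MCAO contra became 1 with DESeq2, 10 with no filter on low counts, 20 with the filter of 10 UMIs, 0 with the stricter and 10 with a looser rule, 0 without doublets, 2 without nuclei with other markers, 12 without those with astrocyte markers, 3 without genes higher in neurons, 1 with the libraries of those groups alone, 11 with the replicate block (all 5 shared) and 0 to 32 when leaving out a library. In MCAO contra against Sham, leaving out a library gave 0 to 6 (6 without Sham L). The 10 genes whose responses differed became 6 with the filter of 10 UMIs, 17 with the stricter rule, 4 without doublets, 17 without nuclei with other markers and 1 to 7 when leaving out a library. The cause of these changes was not tested.

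The ependymal share was, in Sham, 0.0486% with the stricter rule, 0.0171% with nuclei thinned to 1000 UMIs, 0.662% among nuclei with few neuron UMIs and 0.0514 to 0.152% when leaving out a library. In MCAO contra it was 0.368%, 0.253% and 2.18% in that order. In MCAO ipsi it was 0.620% with the stricter rule, 0.967% with the looser rule, 1.89% among nuclei with few neuron UMIs and 0.533 to 1.23% when leaving out a library. Sham stayed lowest in each of these. The stricter rule left 0 nuclei in Sham R, which allows a share of up to 0.0271% by the exact interval (0.0220% at 3 counts). Thinning to 1000 UMIs leaves out most ependymal nuclei of Sham by construction, and thinning to 500 UMIs gave 0.135%, 0.562% and 0.865%.

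Of 1113 alternative values for 70 named genes and comparisons, 0 changed sign, 190 lost and 49 gained a call. The genes were named for their change or p in the main fit, and the alternatives reuse its counts. A kept sign is therefore no independent support. The depth of Sham, 18600 UMIs over 27 ependymal nuclei, limits every comparison with it.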

Other observations

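Aurkb, a kinase gene of mitosis, had 109 UMIs in ependymal nuclei and stood 209 times (95% Poisson interval 166 to 261) above other nuclei. It was at 424 CPM in Sham L and 0 in Sham R, 269 (mMCAO) and 202 (sMCAO) in MCAO contra, and 201 (mMCAO) and 270 (sMCAO) in MCAO ipsi. Of the other S and G2/M phase genes, Pola1 and Diaph3 alone reached 20 UMIs, with ratios of 3.64 and 5.03, so the signal was not shared by the cell cycle list. No cycling is read from it.

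Gstm1, a glutathione transferase gene of the iron, lipid and oxidant list, stood 35.3 times above other nuclei. The list as a sum was at 3.69 times, with Txnrd1 at 1.22 times and Hmox1 and Gpx1 at 0 UMIs. Herpud1, a gene of the unfolded protein response, stood 19.4 times above other nuclei, and its list as a sum 2.16 times. Neither Gstm1 nor Herpud1 was called in any comparison in which it was tested. Slc7a11, the cystine transporter gene, had no UMI in Sham and was at 140 CPM (mMCAO) and 304 (sMCAO) in MCAO contra, and 61.9 (mMCAO) and 180 (sMCAO) in MCAO ipsi. Pooled, MCAO ipsi was at 152 CPM, below the floor of 3 counts over Sham (161 CPM), so no difference between these groups can be read from the 0. Its level was 161 CPM in all ependymal nuclei and 612 CPM in nuclei with astrocyte markers.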
